A study of Homo sapiens with 8 samples.

Results

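The transforming growth factor beta (TGF-β) genes described here are 9 in number. They code for the ligands TGFB1, TGFB2 and TGFB3, the receptors TGFBR1, TGFBR2 and TGFBR3, the inhibitor SMAD7, the matrix protein TGFBI and the activin subunit INHBA. They were found by gene symbol among 29141 tested gene-level features with 20219 distinct symbols. Each of the 9 was on the array, as 1 feature. MIV-Luc is MCF10CA1a with a luciferase gene, and MCF10CA1a is the line of the MCF10A breast epithelial series that forms metastatic carcinoma. The cells were stably transduced with pLKO-shSCR (a scrambled hairpin) or with pLKO-shIL13RA2, hairpin number 2 against the IL-13 receptor IL13Rα2. Each construct was then mock-treated or given IL-13 at 20 ng/ml, and RNA was taken at 16 h. All 4 groups therefore carried luciferase and a lentiviral vector, and all grew in medium with horse serum, insulin, epidermal growth factor, cholera toxin and hydrocortisone. Each construct is 1 drug-selected pool of cells and 1 hairpin sequence, so an effect of the receptor and any other property of that pool cannot be told apart. Each group had 2 biological replicates on 1 array each, 8 arrays in all, named A and B within a group by column order.

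TGF-β ligands are secreted in a latent complex and are set free at the cell surface or in the matrix, among others by integrins and by thrombospondin-1. A free ligand binds the type II receptor TGFBR2, which phosphorylates the type I receptor TGFBR1. TGFBR1 then phosphorylates SMAD2 and SMAD3, which enter the nucleus with SMAD4 and act on target genes. Activins use other receptors but the same SMAD2 and SMAD3. In breast epithelium this pathway is known to hold back growth of normal cells and to favour invasion of advanced carcinoma. IL-13 acting through IL13Rα2 has been reported in other cells to raise TGFB1, and the comparisons below ask what each of the 9 transcripts did when IL13RA2 was depleted, when IL-13 was added, and when both were done.

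The values are log2 signals from robust multi-array averaging (RMA), and a difference of 1 is a fold change of 2. They are signals of different probes, so levels of different genes are not compared. Array medians lay between 5.02 and 5.06, and arrays of the same group had a median SD of 0.102. IL13RA2 was 8.07 and 8.09 in mock-treated shSCR cells and 6.52 and 6.34 in mock-treated shIL13RA2 cells, where it fell by 1.65 (adjusted p = 0.0105). IL-13 raised it in both constructs, to 9.36 and 9.33 in shSCR cells and to 8.23 and 8.15 in shIL13RA2 cells. IL-13-treated shIL13RA2 cells thus stood 0.11 above mock-treated shSCR cells in IL13RA2 itself (95% confidence interval (CI) -0.14 to 0.36). SERPINB3, a known IL-13 target, rose by 3.88 with IL-13 in shSCR cells and by 3.28 in shIL13RA2 cells. The 8 epithelial markers all lay above the array medians, among them EPCAM (11.2 to 11.5), KRT5 (9.46 to 9.98) and ITGB4 (5.82 to 6.50). Of the 5 leukocyte markers, PTPRC (2.27 to 2.71), MS4A1 (3.12 to 3.65) and CD3E (3.77 to 4.39) lay below the array medians, while CD68 (6.52 to 7.39) and CD14 (5.10 to 5.71) lay above them. Of the 5 fibroblast markers, COL1A1 (5.996 to 6.289) lay above the array medians and COL1A2 (4.983 to 5.241) on both sides of them. COL3A1 (4.475 to 4.883), PDGFRB (4.401 to 4.781) and THY1 (4.242 to 4.492) lay below them. The endothelial marker PECAM1 lay between 7.71 and 8.82, while CDH5 (4.40 to 4.83) and VWF (3.65 to 4.07) of the same class lay below the array medians. The estrogen receptor ESR1 (3.96 to 4.18) and the progesterone receptor PGR (3.03 to 3.45) also lay below them, while GATA3 of the same luminal class was 7.79 to 8.32. In bulk RNA, fewer cells that express a gene and less of its RNA per cell cannot be told apart.

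Of the 9 genes, 3 changed with an adjusted p under 0.05 in at least 1 of 8 comparisons, as did 0.693% of all features. INHBA and TGFBR1 fell with the knockdown, and TGFB2 fell with IL-13. TGFB1, TGFB3, TGFBR2, TGFBR3, SMAD7 and TGFBI passed in no comparison. The 250 bases before the transcript start of these 3 genes are shown because their signals carry the results. They are from RefSeq, build GRCh38.p14, 5′ to 3′ on the strand of the gene, at chr7:41703091-41703340 for INHBA (minus strand), chr9:99104863-99105112 for TGFBR1 (plus strand, the first of 8 listed starts) and chr1:218345086-218345335 for TGFB2 (plus strand). Capitals mark the SMAD-binding motif CAGAC, on either strand (in the window of TGFBR1 the capitals are its reverse complement), and a motif of the TATA box, spelled out after the sequences.
INHBA: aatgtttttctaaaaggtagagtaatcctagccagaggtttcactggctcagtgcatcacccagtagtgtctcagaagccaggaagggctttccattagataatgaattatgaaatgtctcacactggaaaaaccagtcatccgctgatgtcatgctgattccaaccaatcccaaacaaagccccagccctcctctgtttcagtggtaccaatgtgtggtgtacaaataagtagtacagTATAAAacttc
TGFBR1: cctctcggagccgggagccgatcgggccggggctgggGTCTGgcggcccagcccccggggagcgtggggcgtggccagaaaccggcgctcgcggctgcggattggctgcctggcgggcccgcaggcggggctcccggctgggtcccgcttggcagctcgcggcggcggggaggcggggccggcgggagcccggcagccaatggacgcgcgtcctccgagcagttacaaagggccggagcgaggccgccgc
TGFB2: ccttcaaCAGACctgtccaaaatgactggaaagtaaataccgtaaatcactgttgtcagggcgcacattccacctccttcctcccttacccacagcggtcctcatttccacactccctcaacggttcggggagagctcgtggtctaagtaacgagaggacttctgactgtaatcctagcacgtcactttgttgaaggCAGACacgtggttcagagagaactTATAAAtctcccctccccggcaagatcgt
INHBA and TGFB2 held TATAAA, beginning 11 and 29 bases before the listed start, as did 11.1% of 27305 promoter windows of this length on either strand. TGFB2 held CAGAC at 243 and 53 bases and TGFBR1 at 213 bases before the start, and 37.8% of all windows held it. Of the other genes, TGFB3 and SMAD7 also held CAGAC. The STAT6 motif TTCNNNNGAA (5.4% of all windows) and the AP-1 motif TGANTCA (6.6%) were in none of the 9 windows. The searched motifs do not overlap one another in the windows shown. The window of TGFBR1 was 79.6% G and C, that of INHBA 42.8% and that of TGFB2 50.4%.

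Genes were called with limma by 2 thresholds, a p under 0.05 after Benjamini-Hochberg adjustment across the 29141 features and a fold change above 2. INHBA was the 1 gene called when IL-13-treated shIL13RA2 cells were compared with mock-treated shSCR cells (background 0.154% of all features) and also the 1 called for the knockdown among IL-13-treated cells (background 0.0515%). For IL-13 in shSCR cells limma called 0 of the 9 (background 0.0583%), with 1 gene (TGFB2) at an unadjusted p under 0.05 (background 6.79%). For the knockdown without IL-13 it called 0 (background 0.0652%), with 4 genes (TGFB1, TGFB2, TGFBR1 and INHBA) at an unadjusted p under 0.05 (background 9.51%). For IL-13 in shIL13RA2 cells it called 0 (background 0.0618%), with 2 genes (TGFB2 and INHBA) at an unadjusted p under 0.05 (background 6.93%). None of the 9 genes changed by more than a fold of 2 in these 3 comparisons. The largest log2 differences were -0.58 (TGFB2), -0.67 (INHBA) and -0.66 (TGFB2), in this order. The test named in the methods, with the same fold change and without adjustment, could therefore call none of them. By the adjusted p alone, 2 genes (TGFBR1 and INHBA) passed in the combined comparison of knockdown plus IL-13 with mock-treated shSCR cells (background 0.285%) and 1 (INHBA) for the knockdown among IL-13-treated cells (background 0.0549%). By limma 0 passed in the other 3 pairwise comparisons, in the order given above, where 0.0618%, 0.0686% and 0.0618% of all features did.

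Averaged over both treatments, the knockdown moved 2 of the 9 genes at an adjusted p under 0.05 (background 0.446%) and 0 of them by more than a fold of 2 (background 0.0755%). At an unadjusted p under 0.05 (background 11.3%), 4 genes were lower in shIL13RA2 cells (TGFB1, TGFBR1, TGFBR2 and INHBA, background 6.03%) and 1, TGFB2, was higher (background 5.31%). Averaged over both constructs, IL-13 moved 1 gene at an adjusted p under 0.05 (TGFB2, background 0.233%) and 0 by more than a fold of 2 (background 0.0927%). At an unadjusted p under 0.05 (background 8.73%), 4 genes were lower with IL-13 (TGFB2, TGFBR1, TGFBI and INHBA, background 3.85%) and 0 were higher (background 4.88%). The interaction of knockdown and IL-13 gave 0 genes by limma at an adjusted p under 0.05 (background 0%), with 1, INHBA, at an unadjusted p under 0.05 (background 4.47%). The median size of the mean knockdown effect was 0.244 over the 9 genes and 0.0938 over all features. For the mean IL-13 effect these medians were 0.198 and 0.0855. The comparisons share arrays, so their counts are not independent of each other.

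**Figure D1:**
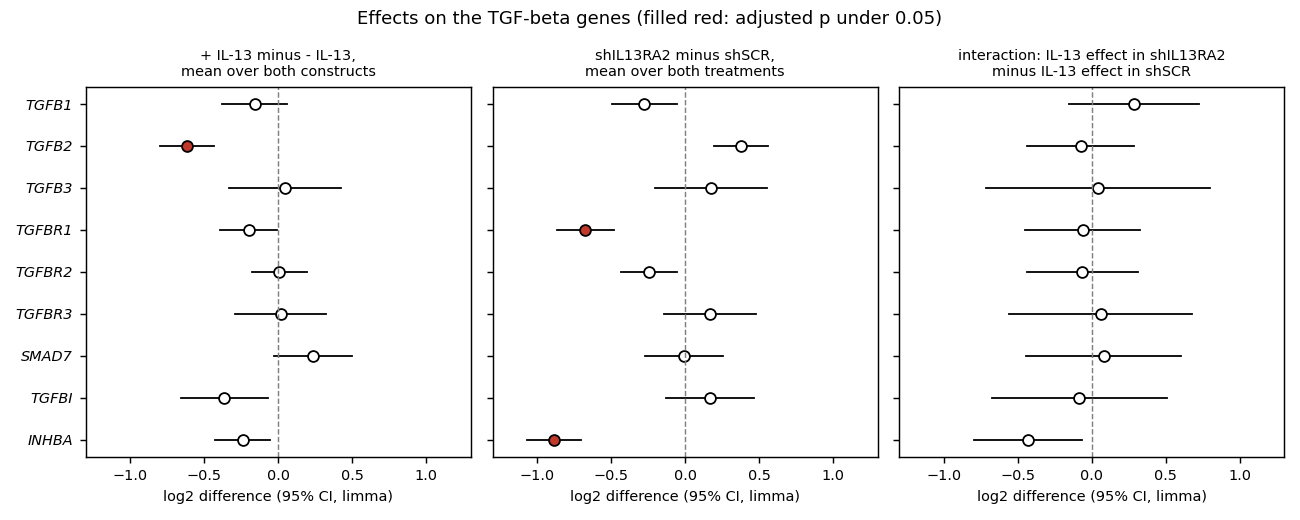
Log2 differences of the 9 genes (horizontal axis) with 95% CI from limma over all 8 arrays: the mean IL-13 effect, the mean knockdown effect and their interaction, 1 panel each. Filled red points have an adjusted p under 0.05: TGFB2 in the first panel (-0.62) and TGFBR1 (-0.67) and INHBA (-0.89) in the second.

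INHBA codes for the βA subunit of activin A and of inhibin A. Its signal was 7.26 and 7.07 in mock-treated and 7.18 and 7.10 in IL-13-treated shSCR cells, 6.48 and 6.51 in mock-treated shIL13RA2 cells, and 6.07 and 6.01 in IL-13-treated shIL13RA2 cells. The 2 shSCR groups overlapped, all 4 shIL13RA2 arrays lay below all 4 shSCR arrays, and the arrays with both knockdown and IL-13 were the lowest. INHBA fell 2.18-fold in IL-13-treated shIL13RA2 cells against mock-treated shSCR cells (log2 difference -1.13, SE 0.11, adjusted p = 0.0120). Among IL-13-treated cells it was 2.15-fold lower with the knockdown (-1.10, SE 0.11, adjusted p = 0.0271). The mean knockdown effect was a 1.85-fold fall (-0.89, SE 0.08, adjusted p = 0.0063). Without IL-13 the difference between constructs was -0.67 (95% CI -0.93 to -0.41) and missed the threshold (adjusted p = 0.147).

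The IL-13 difference in INHBA was -0.03 in shSCR cells (95% CI -0.28 to 0.23) and -0.46 in shIL13RA2 cells (95% CI -0.72 to -0.20, adjusted p = 0.441). The difference between these 2 values was -0.43 (SE 0.16, unadjusted p = 0.0268, adjusted p = 0.989), so it did not pass over all features by limma. Over the 4 groups, the order of the IL13RA2 transcript was not that of INHBA. INHBA was lowest in the IL-13-treated shIL13RA2 cells, where IL13RA2 was near the level of mock-treated shSCR cells. It was higher in mock-treated shIL13RA2 cells, where IL13RA2 was lowest. Within each treatment both were lower with the knockdown. IL13RA2 differed by -1.65 without and -1.16 with IL-13, and INHBA by -0.67 and -1.10. The arrays do not measure the receptor protein, and the relation of the 2 transcripts was not tested. When an array of either group in the combined comparison was left out, its adjusted p was between 0.0719 and 0.128. Among IL-13-treated cells INHBA missed the threshold without any 1 of the 8 arrays (adjusted p 0.0780 to 0.299). The mean knockdown effect passed in 7 of 8 such fits and had an adjusted p of 0.0542 without array A of mock-treated shIL13RA2 cells. The log2 difference stayed within -1.23 to -0.84 over all these fits. Of the leukocyte markers, CD68 also lay lower on the 4 shIL13RA2 arrays (6.52 to 6.91) than on the 4 shSCR arrays (6.99 to 7.39), with a mean difference of -0.47 (adjusted p = 0.262). The mean of the 5 leukocyte markers overlapped (4.33 to 4.48 and 4.32 to 4.65), PTPRC was at most 2.71, and the part of such cells in the result was not tested.

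Of the receptors, TGFBR1 fell with the knockdown. TGFBR1, the type I receptor kinase, was 7.45 and 7.69 in mock-treated and 7.38 and 7.43 in IL-13-treated shSCR cells, 6.88 and 6.98 in mock-treated shIL13RA2 cells, and 6.66 and 6.74 in IL-13-treated shIL13RA2 cells. All 4 shIL13RA2 arrays were below all 4 shSCR arrays, as for INHBA. Within each construct the IL-13 arrays were below the mock arrays, by -0.17 in shSCR and -0.23 in shIL13RA2 cells. Such separation by IL-13, in either direction, was common: 36.7% of all features showed it in shSCR and 37.4% in shIL13RA2 cells. The mean knockdown effect was -0.67 (SE 0.08, a 1.59-fold fall, adjusted p = 0.0225), and the difference of IL-13-treated shIL13RA2 from mock-treated shSCR cells was -0.87 (SE 0.12, a 1.83-fold fall, adjusted p = 0.0357). The knockdown difference was similar in size without IL-13 (-0.64, 95% CI -0.92 to -0.37) and with it (-0.70, 95% CI -0.98 to -0.43), with an interaction of -0.06 (95% CI -0.45 to 0.33). These differences within 1 treatment missed the threshold (adjusted p = 0.191 and 0.163). Without any 1 of the 8 arrays TGFBR1 missed the threshold, at an adjusted p of 0.0701 to 0.116 for the mean knockdown effect and 0.0844 to 0.215 for the combined comparison.

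TGFBR2, the type II receptor that binds ligand, was 7.81 and 7.85 in mock-treated and 7.90 and 7.83 in IL-13-treated shSCR cells, against 7.52 and 7.71 in mock-treated and 7.65 and 7.53 in IL-13-treated shIL13RA2 cells. All 4 shIL13RA2 arrays were again the lower ones, as they were for 3 of the 9 genes and in either direction for 7.13% of all features. The mean knockdown difference was -0.24 (SE 0.08, unadjusted p = 0.0169), and its adjusted p was 0.334. TGFBR3, the co-receptor betaglycan, lay between 3.75 and 4.32 on all arrays. Its 4 shIL13RA2 arrays overlapped with its 4 shSCR arrays. Among IL-13-treated cells alone the constructs did not overlap (4.03 and 4.13 against 3.88 and 3.89 in shSCR cells). Such separation, in either direction, was shown there by 36.4% of all features. The mean knockdown difference of TGFBR3 was 0.17 (95% CI -0.14 to 0.48). On all 8 arrays TGFBR3 was below the median of the array's 2904 negative control features (4.12 to 4.38).

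Of the ligands, TGFB2 fell with IL-13. TGFB2 was 6.62 and 6.69 in mock-treated and 6.02 and 6.14 in IL-13-treated shSCR cells, and 6.99 and 7.15 in mock-treated and 6.40 and 6.43 in IL-13-treated shIL13RA2 cells. All 4 IL-13 arrays lay below all 4 mock arrays, which 4.78% of all features showed in either direction. Within each treatment the shIL13RA2 arrays lay above the shSCR arrays. Separation of the constructs, in either direction, was shown by 41.2% of all features without IL-13 and 36.4% with it. The 4 groups did not overlap, in the order shIL13RA2 mock, shSCR mock, shIL13RA2 with IL-13, shSCR with IL-13. The share of all features whose 4 groups were all separate is not given here, so this order only describes TGFB2. The mean IL-13 effect was a 1.53-fold fall (-0.62, SE 0.08, adjusted p = 0.0323). It was -0.58 in shSCR cells (SE 0.11, adjusted p = 0.321) and -0.66 in shIL13RA2 cells (SE 0.11, adjusted p = 0.188), with an interaction of -0.08 (95% CI -0.44 to 0.29). The mean knockdown difference was 0.38 (95% CI 0.19 to 0.56, adjusted p = 0.127), opposite in sign to those of INHBA and TGFBR1. PECAM1 also lay lower with IL-13 within each construct and higher in shIL13RA2 cells within each treatment, with 8.33 and 8.08 in mock-treated and 7.71 and 7.83 in IL-13-treated shSCR cells, and 8.82 and 8.82 in mock-treated and 8.14 and 8.27 in IL-13-treated shIL13RA2 cells. Its mean IL-13 difference was -0.52 (adjusted p = 0.0938) and its mean knockdown difference 0.53 (adjusted p = 0.0615). The mean of the 3 endothelial markers was 5.43 to 5.63, 5.33 to 5.37, 5.77 to 5.83 and 5.50 to 5.53 in the groups in this order, with CDH5 and VWF below the array medians throughout, and the part of such cells in the result was not tested. Without any 1 of the 8 arrays the mean IL-13 effect on TGFB2 missed the threshold, with values of -0.66 to -0.58 and an adjusted p of 0.105 to 0.165.

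TGFB1, the most studied ligand of the family and the one linked to IL13Rα2, was 4.75 and 4.50 in mock-treated and 4.29 and 4.35 in IL-13-treated shSCR cells. It was 4.28 and 4.13 in mock-treated and 4.09 and 4.29 in IL-13-treated shIL13RA2 cells. The arrays of mock-treated shSCR cells were the highest, and the other 3 groups lay between 4.09 and 4.35. No difference passed. IL-13 in shSCR cells gave -0.30 (95% CI -0.61 to 0.01, adjusted p = 0.746), the knockdown without IL-13 -0.42 (95% CI -0.73 to -0.11, adjusted p = 0.410), and the mean knockdown effect -0.28 (SE 0.09, unadjusted p = 0.0196, adjusted p = 0.351). TGFB1 was above the median negative control feature on 4 of 8 arrays, so its signal lay near that level. TGFB3 was between 3.44 and 4.14, below that median on all 8 arrays, and its mean differences were 0.05 for IL-13 (95% CI -0.33 to 0.42) and 0.18 for the knockdown (95% CI -0.20 to 0.55). The 95th percentile of the negative control features (9.41 to 9.74) was above every value of all 9 genes, so by that measure none of the 9 was above the control features. It was also above every value of IL13RA2 (at most 9.36), so this measure could not tell whether a gene was expressed. TGFB2, TGFBR1, TGFBR2, TGFBI and INHBA were above the median control feature on all 8 arrays.

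Neither immediate target passed in any comparison. SMAD7, an inhibitory SMAD that TGF-β signalling induces as feedback, was 4.53 and 4.21 in mock-treated and 4.49 and 4.64 in IL-13-treated shSCR cells, and 4.24 and 4.40 in mock-treated and 4.43 and 4.76 in IL-13-treated shIL13RA2 cells. Its mean IL-13 difference was 0.23 (95% CI -0.03 to 0.50, adjusted p = 0.624) and its mean knockdown difference -0.01 (95% CI -0.27 to 0.25). SMAD7 was above the median negative control feature on 7 arrays. TGFBI, a secreted matrix protein named for its induction by TGF-β, was 7.65 and 7.41 in mock-treated and 7.38 and 7.04 in IL-13-treated shSCR cells. In shIL13RA2 cells it was 7.68 and 7.81 when mock-treated and 7.55 and 7.13 with IL-13. Its mean IL-13 difference was -0.36 (95% CI -0.66 to -0.07, unadjusted p = 0.0219), and the adjusted p was 0.476. Within each construct the IL-13 arrays of TGFBI were below the mock arrays, but the 4 IL-13 arrays overlapped with the 4 mock arrays. Separation within a construct, in either direction, was shown by 36.7% of all features in shSCR and 37.4% in shIL13RA2 cells.

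Over the 8 arrays, the signals of INHBA and TGFBR1 had a Pearson correlation of 0.94, those of INHBA and TGFBR2 of 0.86, and those of TGFB2 and TGFBI of 0.75. The arrays fall into 4 groups that share construct or treatment, so these values only describe the group pattern. The genes most like INHBA over the 8 arrays were CEACAM1 (r = 0.98), EXT2 (0.98), DHRS9 (0.98), PDLIM4 (0.98) and STRADB (0.98). Of 22076 features with a symbol, 127 had a correlation above 0.9 with INHBA. CEACAM1, a cell adhesion molecule, went from 9.44 and 9.27 in mock-treated shSCR cells to 8.53 and 8.38 in IL-13-treated shIL13RA2 cells. PDLIM4, an actin-associated LIM protein, went from 5.95 and 5.72 to 5.27 and 5.22.

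Other genes of the pathway were taken from 4 lists of 90 genes in all, written from general knowledge, and every gene was on the array. In the list of latency and activation, 1 of 20 genes rose at an adjusted p under 0.05 when IL-13-treated shIL13RA2 cells were compared with mock-treated shSCR cells (background 0.285% at this threshold) and 0 fell. This was THBS1, thrombospondin-1. None of the 20 transducers and inhibitors, 25 direct targets or 25 genes of the activin, inhibin and BMP branch passed there or in any other of the 8 comparisons by limma. At an unadjusted p under 0.05, the mean knockdown effect held 22 of the 90 genes, 11 higher and 11 lower, which is 24.4% beside 11.3% of all features. The mean IL-13 effect held 9, 8 higher and 1 lower, which is 10.0% beside 8.73%. These shares were not tested.

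THBS1 was 8.61 and 8.32 in mock-treated and 9.24 and 9.24 in IL-13-treated shSCR cells, and 9.12 and 9.18 in mock-treated and 9.82 and 9.63 in IL-13-treated shIL13RA2 cells. IL-13-treated shIL13RA2 cells were the highest and mock-treated shSCR cells the lowest. THBS1 rose by 1.26 in the combined comparison (SE 0.13, adjusted p = 0.0152) and by 0.67 on average with IL-13 (SE 0.09, adjusted p = 0.0440). Its mean knockdown difference of 0.58 had an adjusted p of 0.0533. Without 1 array, in fits added after the values were seen, the combined comparison passed in 4 of 8 fits (adjusted p 0.0436 to 0.112, above the threshold without either array of the groups compared) and the mean IL-13 effect in 0 of 8 (adjusted p 0.0758 to 0.205).

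**Figure D2:**
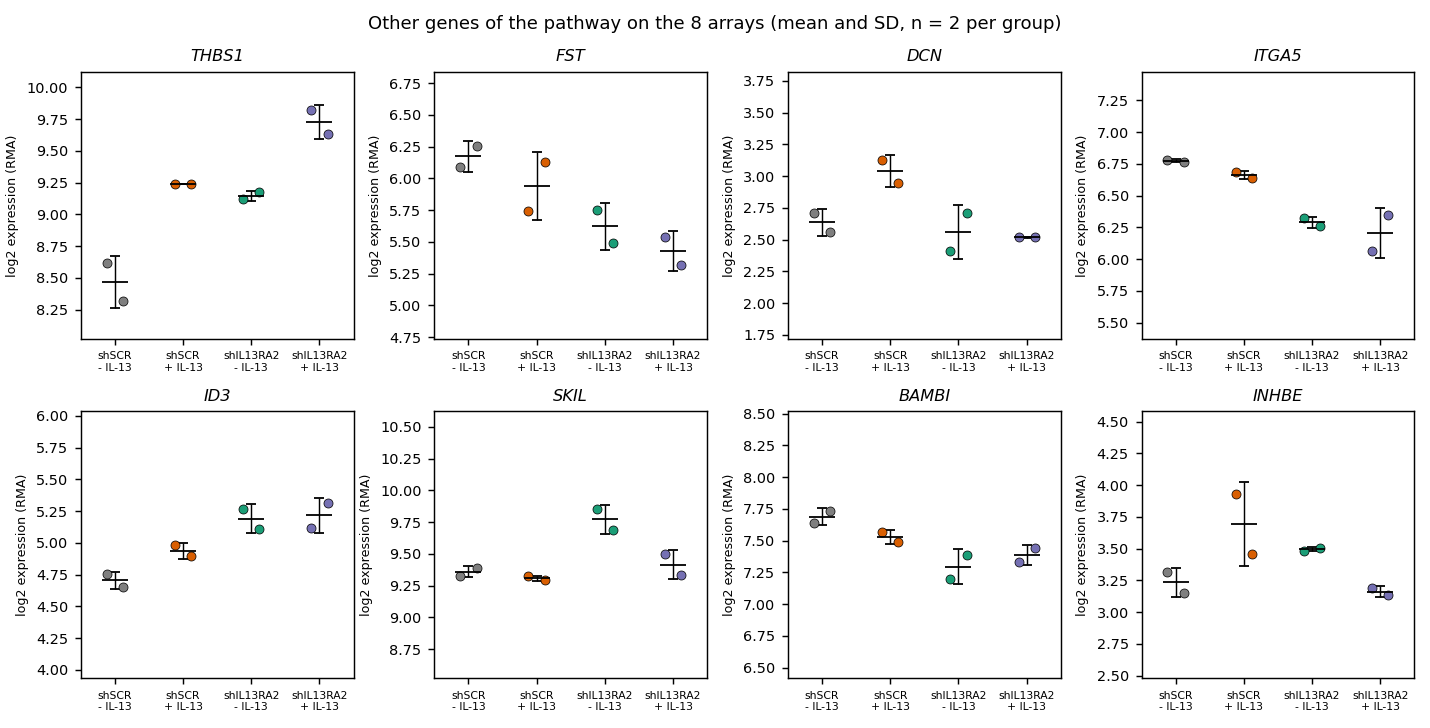
The log2 RMA signal (vertical axis) of 8 other genes of the pathway in the 4 groups (horizontal axis), with 1 dot per array and the mean ± SD (n = 2). THBS1 is lowest in mock-treated shSCR cells (8.61 and 8.32) and highest in IL-13-treated shIL13RA2 cells (9.82 and 9.63), and ITGA5 is lower in the shIL13RA2 groups.

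The genes with the smallest p in each list are given by their values. ITGA5, the α5 integrin chain and a TGF-β target, was 6.64 to 6.78 on the 4 shSCR arrays and 6.06 to 6.35 on the 4 shIL13RA2 arrays, without overlap (mean knockdown difference -0.47, SE 0.09, adjusted p = 0.0897). ID3, an inhibitor of basic helix-loop-helix factors, was 4.65 to 4.98 and 5.11 to 5.32 on the same arrays (0.38, SE 0.09, adjusted p = 0.151). FST, follistatin, which binds and blocks activin, was 5.75 to 6.26 and 5.32 to 5.76 (-0.53, SE 0.12, adjusted p = 0.151). The ranges of FST overlapped slightly, and its mean difference had the same sign as that of INHBA. INHBE, another activin subunit, had an interaction of -0.79 (SE 0.23, adjusted p = 0.989), with 3.93 and 3.46 in IL-13-treated shSCR cells and 3.13 to 3.51 on the other 6 arrays. SKIL, a SMAD co-repressor, differed by 0.41 (adjusted p = 0.357) and BAMBI, a decoy receptor, by -0.39 (adjusted p = 0.382) for the knockdown without IL-13. DCN, a matrix proteoglycan that binds TGF-β, differed by -0.52 for the knockdown among IL-13-treated cells (adjusted p = 0.433), at values between 2.41 and 3.13 on all arrays. Every value of INHBE and DCN lay below the median negative control feature of its array (4.12 to 4.38).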

How the data were processed

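Expression of MIV-Luc cells was profiled in 4 groups with 2 arrays each. The labels and methods name GeneChip Human Exon 1.0 ST arrays, hybridized with cDNA made from total RNA. The authors deposited log2 values per gene-level feature, made with RMA in Affymetrix Expression Console (version 1 in the submitters' processing notes), a method that corrects the background, quantile-normalizes all arrays and summarizes the probes. Quantile normalization gives every array nearly the same distribution, so a shift shared by most genes would not be seen. The table holds 33297 gene-level features, the size of a gene-level array design, and which design was hybridized was not settled here. The series description also names the Exon Array Computational Tool. No further normalization was applied. Each column heading names a construct and a treatment, which set its group. The headings carry no replicate numbers of the labels.

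Of these features, 4156 control features were left out and 29141 tested. Group means were fitted in limma version 3.58.1 (R version 4.3.3) over all 8 arrays, with 4 residual and 3.858 prior degrees of freedom. P-values were adjusted by Benjamini-Hochberg over all tested features, and CIs are 95% intervals of the same fit. A gene was called at an adjusted p under 0.05 and a fold change above 2, the methods' thresholds. The interaction used the adjusted p alone. Of a list gene with several features (5 genes), the one with the highest mean signal was used. Marker signals are means over all features of a symbol, while tests of markers used the first feature. With arrays, their number limits the precision.

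The 9 genes and the lists were chosen with earlier results of these data known. Named are the 9 genes, IL13RA2 and SERPINB3 as checks of the labels, markers, list genes with an adjusted p under 0.05, the 2 genes of each list with the smallest p in any comparison, and the 5 genes best correlated with the gene of smallest F-test p, INHBA. Alternatives were the methods' test on the 4 arrays compared, limma on those 4 arrays, no adjustment, a fold change above 1.5 or none, leaving out the dimmest 30% of features, a median shift, a second quantile normalization, a robust prior with an intensity trend, and leaving out each array.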

Additional observations from a re-analysis of the deposited data

How the results depend on the processing

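With a fold change above 1.5 or with no fold threshold, 2 of the 9 genes (TGFBR1 and INHBA) were called for IL-13-treated shIL13RA2 cells against mock-treated shSCR cells (0.285% of all features at either setting), 1 (TGFB2) for the mean IL-13 effect (0.223% and 0.233%) and 2 (TGFBR1 and INHBA) for the mean knockdown effect (0.333% and 0.446%). Without adjustment, 1 gene (INHBA) passed for the interaction (4.47% of all features). With the methods' test after adjustment, and with limma on the 4 arrays compared, 0 genes were called in the combined comparison and 0 for the knockdown among IL-13-treated cells. The cause was not tested. Both tests used only the 4 arrays compared, and the share of all features that they called is not given here. These counts alone therefore do not tell how the 9 genes stand beside other features. When each array was left out in turn, the count ranged from 0 to 1 in the combined comparison, with 0 without either mock-treated shSCR or either IL-13-treated shIL13RA2 array, and was 0 in each of the 8 fits for the knockdown among IL-13-treated cells. In these fits the lone array of a group is assumed to vary like the other groups. The share of all features called in them is not given here either. Calls lost in these fits therefore do not tell how the 9 genes stand beside other features. This limit also holds for each adjusted p given above with an array left out. The other counts stayed at their main values under every alternative run.

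Over 848 values of single genes and alternatives, the sign changed in 52, none of them with an adjusted p under 0.05 in either fit, and the largest such difference was 0.196. With a robust prior and an intensity trend, 5 further differences passed, those of TGFBR1 and INHBA for the knockdown without IL-13 (adjusted p = 0.0222 and 0.0207), TGFBR1 among IL-13-treated cells (0.0177), and TGFB2 for IL-13 in shIL13RA2 cells (0.0368) and for the mean knockdown effect (0.0367). This prior also raised the share of all features that passed, from 0.0686% to 0.899%, from 0.0549% to 0.484%, from 0.0618% to 0.384% and from 0.446% to 2.25% in these 4 comparisons. TGFB3 and TGFBR3 were among the dimmest 30% of features and have no value under that filter. No paired analysis was possible because the column headings carry running array numbers and not the replicate numbers of the labels. The number of arrays limits what could be detected, as does a signal near the median control feature for TGFB1, TGFB3, TGFBR3 and SMAD7. The same holds for a signal below that median for the list genes INHBE and DCN.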
